A study of Mus musculus with 2 samples.

Results

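The feedback targets of FGF and ERK signalling are 10 genes, Dusp4, Dusp6, Spry1, Spry2, Spry4, Spred1, Spred2, Il17rd, Etv4 and Etv5, which were read on 13 of the 55681 probes for mouse transcripts. Every probe whose gene name in the scanner output matched 1 of the 10 was taken. The rule used names and no measured value, but the list was drawn up with earlier results of these data known, so the counts below describe the 10 genes and are not independent evidence of a direction. All 10 were well above background on both arrays. Epiblast stem cells (EpiSC) obtained by way of aggregates (ELA-EpiSC) had a higher level of all 10 than EpiSC obtained directly, by a log2 difference of 0.28 for Spred2 at the lowest and 1.49 for Dusp6 at the highest. The phosphatase genes Dusp6 and Dusp4 and the transmembrane antagonist gene Il17rd differed by more than 2-fold. Each group was a single array, so none of these differences had a replicate.

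Fibroblast growth factors bind receptor tyrosine kinases, which activate RAS and, through RAF and MEK, the kinase ERK. ERK activity raises the transcription of genes whose products damp the same route at several levels, and the RNA of these genes is widely used as a readout of how strongly the route runs. FGF signalling drives embryonic stem (ES) cells out of the naive state, and EpiSC, the cultured counterpart of the epithelial epiblast after implantation, are maintained in FGF and Activin.

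Both groups came from E14Tg2A, a mouse ES cell line of the 129/Ola strain that was grown on gelatin in serum and leukemia inhibitory factor (LIF). For EpiSC, the ES cells went straight into a minimal medium of defined composition with N2/B27, to which FGF2 (12 ng/mL) and Activin A (20 ng/mL) had been added. ELA-EpiSC received the same medium with the same doses of both factors, but the starting cells were Epiblast-Like Aggregates (ELA), floating clusters that ES cells form by 2 days after serum and LIF are withdrawn. The ligand for the route measured here was therefore supplied at 1 dose to both groups, and the comparison asks whether EpiSC reached by the 2 paths differ. The cells are those of a single line, and each RNA was a pool of 3 independent experiments. The labels disagree in 1 place: their source entries give undifferentiated cells for both samples, and for EpiSC an Argonaute immunoprecipitate, whereas titles, descriptions and molecule fields give total RNA of the groups as used here.

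Both arrays lay on 1 slide and were read in 1 scan. The probes well above background made up 65.9% of all probes for EpiSC and 65.0% for ELA-EpiSC, and no spot was saturated. The only error that could be measured was technical: over 312 transcript probes that were printed 10 times each and detected on both arrays, the log2 difference between the arrays had a standard deviation (SD) of 0.102 between spots, called the spot SD below. It covers variation from spot to spot in printing, hybridization and reading within these 2 arrays. It leaves out culture, labelling and any offset between whole arrays. Markers shared by pluripotent cells were present on both arrays, with Pou5f1 at a log2 level of 14.27 in EpiSC and 14.46 in ELA-EpiSC. The primed epiblast gene Otx2 was at 15.86 in both groups on its brightest probe and differed by -0.28 on its other probe. Other primed epiblast genes differed in both directions, as described further below.

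Levels are log2 intensities after background correction and quantile normalization, and a gene is represented by its brightest detected probe. At a log2 difference of at least 1 (2-fold), 3 of the 10 members (30%) were higher in ELA-EpiSC and none was higher in EpiSC. Of the 16649 genes with a mean log2 level of at least 7.5, 4.54% were higher in ELA-EpiSC by as much and 4.46% were higher in EpiSC. Among the 11150 genes no dimmer than the dimmest member, 3.92% were higher in ELA-EpiSC by as much. A higher level in ELA-EpiSC by any amount was seen in 10 of 10 members and in 50.2% of all genes. The median difference over the members was 0.85, beside 0.00137 over all genes. No probability is attached to these counts, since 10 genes of 1 pathway on 1 pair of arrays are not replicates.

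**Figure D1:**
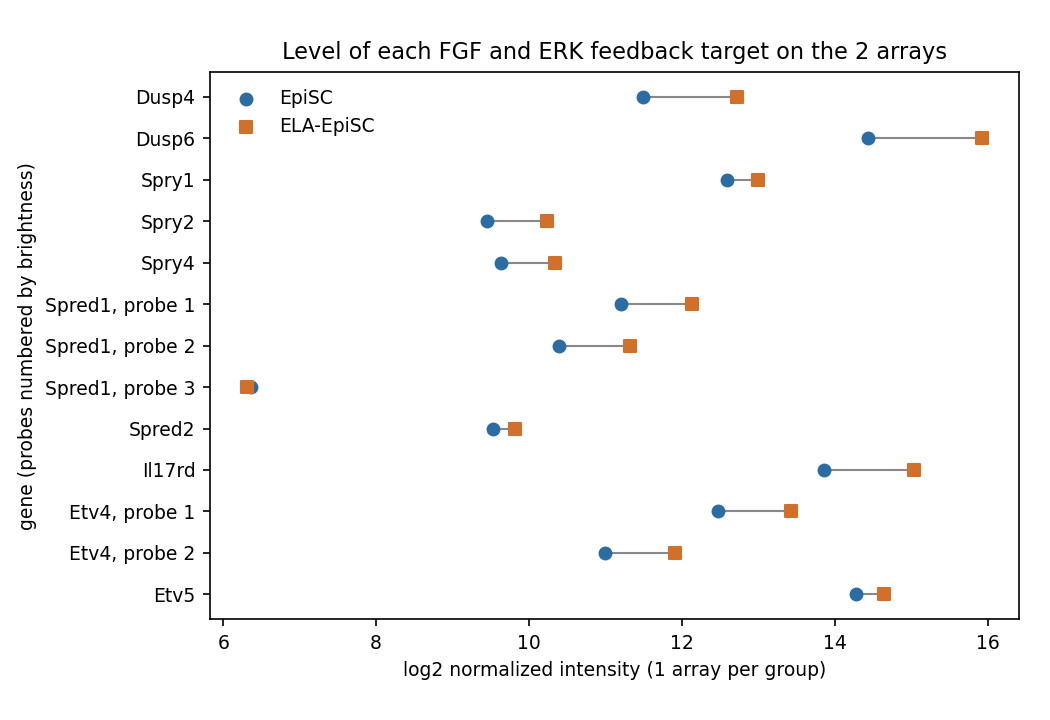
Log2 normalized intensity of each of the 13 probes on the EpiSC array (circles) and the ELA-EpiSC array (squares), 1 row per probe and 1 array per group. In 12 of 13 rows the square lies to the right, by 0.28 to 1.49, and in the row of Spred1 probe 3 the 2 symbols lie 0.06 apart in the other direction.

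Dusp4 and Dusp6 encode dual-specificity phosphatases that remove the activating phosphates from ERK, Dusp4 in the nucleus and Dusp6 in the cytoplasm. The Dusp6 probe (chr10:98729985-98730044, mm9) gave a mean spot brightness of 21071 for EpiSC and 61304 for ELA-EpiSC, before any correction. Its log2 level was 14.43 in EpiSC and 15.92 in ELA-EpiSC, which differ by 1.49, or 2.81-fold. Dusp6 thus had the widest gap of all members, 14.6 times the spot SD, and only 2.04% of all genes were higher in ELA-EpiSC by as much or more. The Dusp4 probe (chr8:35882045-35882104, mm9) read 2581 and 7344 units of brightness in the same order. The log2 level of Dusp4 was 11.49 in EpiSC and 12.72 in ELA-EpiSC, which differ by 1.23 or 2.35-fold. Dusp4 and Dusp6 were therefore on the same side, and 3.09% of all genes were higher in ELA-EpiSC by as much as Dusp4.

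Sprouty proteins restrain receptor tyrosine kinase signalling between the receptor and RAF. All 3 Sprouty members were higher in ELA-EpiSC, each by less than 2-fold. Spry2 (probe at chr14:106291845-106291904, mm9, minus strand) had a log2 level of 9.45 in EpiSC and 10.24 in ELA-EpiSC, which differ by 0.78 (1.72-fold). Spry4 was at 9.64 and 10.33, a difference of 0.70 (1.62-fold). The Spry4 probe had the lowest GC content among the members' probes, 20% against a median of 43.3% over all probes, and spots printed around it differed between the arrays by a median of 0.19 in the same direction. Spry1 (probe at chr3:37543403-37543462, mm9) was at 12.59 and 13.00, a difference of 0.41 (1.33-fold). That was 4.02 times the spot SD, and 17.3% of all genes were higher in ELA-EpiSC by as much. Of the 3 Sprouty genes, Spry1 had the smallest difference, and the gap between Spry1 and Spry2 exceeded the spot SD.

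Spred1 and Spred2 encode membrane-bound relatives of the Sprouty proteins, and Spred1 works by bringing the RAS inhibitor neurofibromin to the membrane. Spred1 was the only member with 3 probes, all on the plus strand of chromosome 2. The opening 30 bases of each 60-base probe are shown because 1 of the 3 behaved differently; they are numbered by brightness, and no motif is marked in them.
Spred1 probe 1 (chr2:117005906-117005965, mm9): cattaatattttcagtttgtttaaccactt
Spred1 probe 2 (chr2:117004952-117005011, mm9): gtgatatgctccagcaaacaggttaaaaat
Spred1 probe 3 (chr2:116998491-116998550, mm9): caacctcttcattgtttaatgttctggtct
Probes 1 and 2 are drawn from one transcript record, starting at bases 4209 and 3255, and probe 3 from another record of the gene, starting at base 1907. Probe 1 read a log2 level of 11.21 in EpiSC and 12.13 in ELA-EpiSC, which differ by 0.92. Probe 2 read 10.40 and 11.32, a difference of 0.93, so that the pair differed from each other by far less than the spot SD. Probe 3 had a raw brightness of 48.7 and 44.5 over a local background of 26 and 22, and its log2 level was 6.36 and 6.31. That probe lay near the floor of both arrays, and its difference of -0.06 was smaller than the spot SD. The Spred1 RNA read by the brighter pair of probes was thus higher in ELA-EpiSC by 1.89-fold, and the record behind probe 3 gave too little signal for a comparison. Spred2 (probe at chr11:19922416-19922475, mm9) was at 9.53 and 9.81, a difference of 0.28 (1.21-fold) that was the smallest among members and 2.75 times the spot SD. Of all genes, 24.4% were higher in ELA-EpiSC by as much, and the median size of a difference in either direction was 0.28, so Spred2 did not stand out from them.

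Il17rd, also called Sef, encodes a transmembrane antagonist that binds FGF receptors and holds active MEK and ERK in the cytoplasm. Its probe (chr14:27920311-27920370, mm9) read 13889 units of raw brightness for EpiSC and 33908 for ELA-EpiSC. The log2 level was 13.86 and 15.03, a difference of 1.18 (2.26-fold), 11.5 times the spot SD. Il17rd was the third member past 2-fold, and 3.38% of all genes were higher in ELA-EpiSC by as much.

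Etv4 and Etv5 encode ETS transcription factors of the PEA3 group, which carry the response out rather than damp it and whose transcription falls quickly when FGF receptors are blocked. Etv4 was read by a pair of probes on the same transcript record, minus strand of chromosome 11, that do not overlap; their opening 30 bases are shown because they read separate stretches of the RNA.
Etv4 probe 1 (chr11:101631057-101631116, mm9): taattccacctttgcctcttatgccagacc
Etv4 probe 2 (chr11:101631322-101631381, mm9): agatccagtgttctattctggggacataca
Etv4 probe 1 had a log2 level of 12.48 in EpiSC and 13.43 in ELA-EpiSC, which differ by 0.95 (1.93-fold). Etv4 probe 2 had 11.00 and 11.92, a difference of 0.92. The probes of Etv4 therefore gave the same difference within the spot SD from separate spots and separate stretches of the RNA. Etv5 (probe at chr16:22381387-22381446, mm9, minus strand) was at 14.28 and 14.65, a difference of 0.37 (1.29-fold). Etv5 was 3.65 times the spot SD apart between the groups, and 19.2% of all genes were higher in ELA-EpiSC by as much. The 2 PEA3 members thus differed from each other in size, 0.95 against 0.37.

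Of the members with a promoter at hand, Etv5 was the only one whose sequence held a searched motif. RefSeq promoters on GRCm38.p6, from 250 bases before to 50 after each start, were at hand for 7 of the members, 8 promoters in all, among 32851. Each was searched on both strands for TGAATGAA and TGAATGGA, octamers bound by Capicua, a repressor that ERK switches off, and for the ETS octamer CCGGAAGT, the cAMP response element TGACGTCA and the AP-1 heptamer TGACTCA. None of these was in a member's promoter. They were in 1.30%, 1.21%, 3.89%, 1.79% and 5.20% of all promoters in that order. A further pair of Capicua octamers, TGAATGAG and TGAATGGG, was added after that result, and these were in 1.20% and 1.08% of all promoters. TGAATGGG was found 3 times in 1 of the 2 Etv5 promoters, at 242, 198 and 131 bases before the start. The 250 bases before that start (chr16:22438369-22438618, minus strand, GRCm38.p6) are printed with the octamer in capitals, the occurrence nearest the start being on the other strand.
Etv5 promoter: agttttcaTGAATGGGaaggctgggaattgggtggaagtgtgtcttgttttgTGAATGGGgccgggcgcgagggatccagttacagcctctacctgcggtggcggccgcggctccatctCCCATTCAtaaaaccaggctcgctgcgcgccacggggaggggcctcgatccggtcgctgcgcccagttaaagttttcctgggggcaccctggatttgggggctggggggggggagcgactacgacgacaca
Any of the 4 Capicua octamers searched was in 4.60% of all promoters, and 19 promoters (0.0578%) held 3 or more. The cut of 3 was taken from the Etv5 promoter after its octamers had been found, so that share is a description only. Other forms of the Capicua site were not searched. A match says only that these letters lie in the window, and a link to the differences was not tested. Dusp4, Etv4 and Spry4 had no promoter at hand, so whether theirs held a match is not known.

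**Figure D2:**
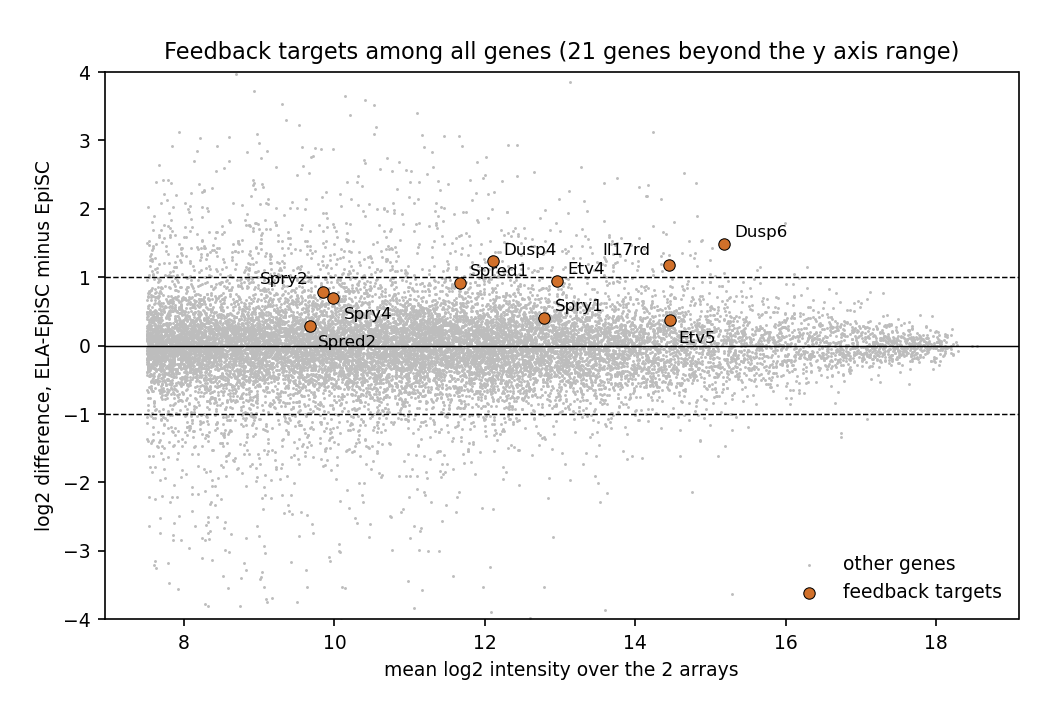
Log2 difference, ELA-EpiSC minus EpiSC, against the mean log2 intensity over the 2 arrays for the 16649 genes at or above the level minimum (grey) and the 10 feedback targets (orange, named); dashed lines mark a difference of 1 in either direction, and 21 genes lie beyond the y axis range. All 10 feedback targets lie above the 0 line, and Dusp4, Dusp6 and Il17rd lie above the upper dashed line.

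The spread over all genes gives the scale for these values. Log2 differences over the 16649 genes had an SD of 0.65, and the central 95% of them ran from -1.32 to 1.37. Dusp6, alone among the members, lay outside that range. At a lower bar of 1.5-fold, 7 members were higher in ELA-EpiSC, the exceptions being Spry1, Spred2 and Etv5, beside 11.1% of all genes. The same 7 were higher by more than 5 times the spot SD, beside 13.2% of all genes. Position on the array was checked as well: spots within 5 rows and columns of a member, 33 to 51 of them, differed by a median between -0.15 and 0.19. After subtraction of those medians the members differed by 0.36 to 1.42 with a median of 0.84, and Etv4 at 1.08 became the fourth member past 1. The members lie on 8 chromosomes.

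The scale between the arrays was set by the normalization. On the normalized scale, probes for RNA spiked in during labelling were lower on the ELA-EpiSC array for 8 of 8 detected, by a mean log2 of 0.54. Setting them equal adds 0.54 to every difference, which brings the median over all genes to 0.54, the number of members past 1 to 7, the share of all genes higher in ELA-EpiSC past 1 from 4.54% to 14.8%, and the share of calls that are higher in ELA-EpiSC from 50.5% to 89.0%. Scaling by the median of each array gave 6 members past 1, beside 6.69% of all genes, and 68.3% of calls higher in ELA-EpiSC. Relative to the median of all genes, the member median was 0.74 to 0.93 over all 17 alternatives, and all 10 members were above 0 in each, by at least 0.21. Il17rd was under 1 when each array was scaled by its 75th percentile, with 0.95 as its lowest value. Dusp4 and Dusp6 kept a difference past 1 in all 14 alternatives other than those of the bar and the level minimum. Among these, the detection settings and the average over probes could not change either value. Each of the 2 genes had 1 probe, detected on both arrays.

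**Figure D3:**
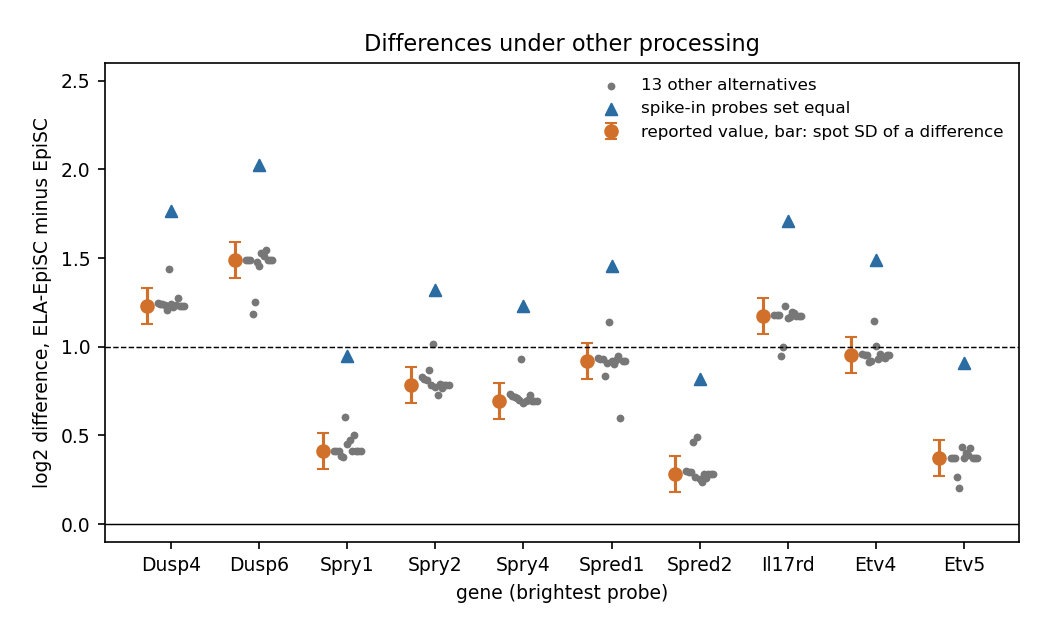
Log2 difference, ELA-EpiSC minus EpiSC, of each member on its brightest probe as reported (orange, bar: spot SD of 0.102), with spike-in probes set equal (blue triangles) and under 13 other alternatives (grey); the dashed line marks a difference of 1. Every point lies above 0, the lowest at 0.21 for Etv5, and Dusp4 and Dusp6 stay above the dashed line throughout.

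The rest of the route was described with 6 lists of 103 genes, of which 83 had a mean log2 level of at least 7.5. Past a difference of 1, 17 of the 83 were higher in ELA-EpiSC and 4 were higher in EpiSC, and the median over the 83 was 0.35. Of all genes, 4.54% were higher in ELA-EpiSC by as much and 4.46% in EpiSC. The counts per list below stand beside the same shares, and a count of 1 in a short list cannot be told apart from them. Of the 8 other MAP kinase phosphatases, 7 were on the members' side, 4 of them past 1, and the list median was 0.89. Dusp7 and Dusp8 are named after their values were seen. Dusp7 differed by 0.10 where it was brightest and by -0.00 on its other probe. Dusp8 differed by -0.16, or 0.37 with spike-in probes set equal. Dusp14 was at 11.49 in ELA-EpiSC, higher than in EpiSC by 2.39. Dusp2, a nuclear phosphatase, went from 10.53 to 12.36, and Dusp1, the classical mitogen-induced member of the family, from 10.60 to 11.72. Dusp9, which is selective for ERK, was at 11.33 and 12.49, a difference of 1.17. Dusp16, directed mainly at the stress kinases, differed by 0.55.

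The list of relatives of the members also held genes outside their families, such as Lrig3, Flrt3 and Cic. Of its 10 genes at or above the level minimum, 1 was past 1 on each side, and the median was 0.30. Spred3 and Etv1, from the members' own families and named after their values were seen, were both higher in ELA-EpiSC. Spred3 differed by 0.64, and Etv1 by 0.96 where it was brightest and by 0.56 on its other probe. Lrig3, a transmembrane leucine-rich repeat protein, was at 14.65 in EpiSC and 15.71 in ELA-EpiSC, which differ by 1.06. Flrt3, a transmembrane protein that binds FGF receptors, went the other way, from 13.13 to 11.65, and all 3 of its probes differed by between -1.48 and -1.24. Cic, the gene of the Capicua repressor, differed by -0.34, which became 0.19 with spike-in probes set equal.

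The lists of FGF genes, receptors and the cascade were mixed. Of 11 Fgf genes, not all of which encode secreted ligands, 3 were past 1 in ELA-EpiSC and 1 in EpiSC. Their median was 0.16. Fgf8 was at 13.68 in EpiSC and 14.99 in ELA-EpiSC, which differ by 1.31, but its 3 probes ran from 0.45 to 1.31. Fgf21, an endocrine FGF, was at 7.70 and 10.12, and Fgf18 at 7.64 and 8.98. Fgf4, the main FGF made by ES cells, was lower in ELA-EpiSC, at 11.04 and 9.62, a difference of -1.41. Fgf5, a mark of the primed epiblast, was at 15.19 and 15.34, a difference of 0.16 that turned negative when arrays were scaled by their 75th percentile. No receptor or co-receptor gene of 9 was past 1 in ELA-EpiSC, and the median was -0.06. The glypican genes Gpc3 and Gpc4, which encode cell surface proteoglycans, were lower in ELA-EpiSC by -1.96 and -1.54, with the second Gpc4 probe at -0.51. The receptor gene Fgfr1 differed by 0.39 where it was brightest and by -0.07 at the lowest of 3 probes. None of the 21 genes of the cascade list was past 1 on either side, and their median was 0.16. That list ran from adaptors to ERK and also held Rps6ka genes, which lie downstream of ERK. Ptpn11, the phosphatase SHP2 that links receptors to RAS, differed by 0.42, and Rps6ka1, a kinase that ERK activates, by -0.40, or 0.13 with spike-in probes set equal.

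The list of immediate-early genes downstream of ERK also held genes outside that class, such as Elk1, Elk3, Ets1 and Plaur. In that list, 9 of 24 were higher in ELA-EpiSC past 1 and none in EpiSC, with a median of 0.75. The zinc finger factor Egr1 was at 12.41 in EpiSC and 14.02 in ELA-EpiSC, which differ by 1.61. Egr2 differed by 1.36, Myc, a regulator of growth, by 1.47, and Junb, an AP-1 subunit, by 1.42. The urokinase receptor gene Plaur was at 10.81 and 12.31. Elk3, a partner of serum response factor, differed by 1.76 where it was brightest and by -0.00 on a further probe, and Fosl2 by 1.42 and 0.13, so neither was uniform over its probes. Ets1 was past 1 by a smaller margin, at 1.08. The synaptic gene Arc, at 1.00, was at the bar itself. The brightest genes of that list were not past 1: Elk1 differed by 0.08, which turned negative under 3 alternatives, and Jun by -0.31, or 0.23 with spike-in probes set equal. The AP-1 genes Fos and Fosb, named after their values were seen, differed by -0.90 and -0.77. The list was thus higher for its median and not for each gene.

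**Figure D4:**
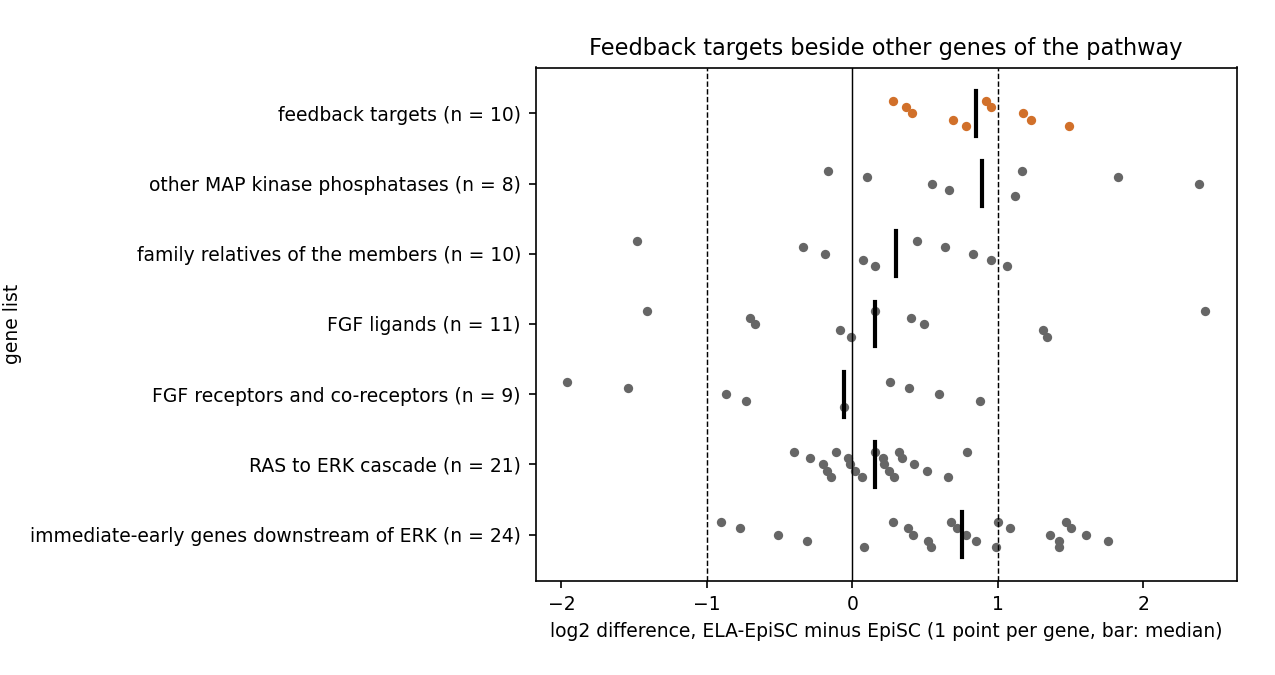
Log2 difference, ELA-EpiSC minus EpiSC, of the feedback targets (orange) and of the genes of 6 pathway lists (grey), 1 point per gene on its brightest probe with the list median as a bar; dashed lines mark a difference of 1 in either direction. The medians are 0.85 for the feedback targets, 0.89 for the other phosphatases and 0.75 for the list of immediate-early genes. Those of the lists labelled as relatives of the members (0.30), FGF ligands (0.16), receptors (-0.06) and cascade (0.16) lie to the left of these. The lists of relatives, ligands and cascade also hold genes outside their label.

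Markers of other cell types also differed between the arrays. In bulk RNA, fewer cells of a type and less RNA per cell cannot be told apart. Of 12 visceral and primitive endoderm markers, 8 reached the level minimum and 4 of them (Ttr, Amn, Hnf4a and Gata4) were lower in ELA-EpiSC past 1, and the summed signal of the list was 59451 in EpiSC and 32321 in ELA-EpiSC. Of 7 mesendoderm markers, 3 were higher and 2 lower past 1 in ELA-EpiSC, with T, the Brachyury gene, at 11.18 and 13.66, and the summed signal was 34270 and 56959. Of 7 neural markers at or above the minimum, Nes and Nefl were higher, by 2.11 and 2.18, and Hesx1 and Rax, genes of the anterior neural plate, were lower, with differences of -4.38 and -5.96. The neural summed signal was 28004 and 62223, carried by the brighter Nes and Nefl, while the list median was -0.09. Of 4 mesenchyme markers at or above it, 2 were higher and none lower, with a summed signal of 3340 and 5508. Of 7 naive markers, 3 were lower in ELA-EpiSC past 1 and none higher, and the summed signal of that list was 7548 and 3700. Of 5 trophoblast markers, 1 was higher and 2 lower, with a summed signal of 10285 and 5691. Of the 6 markers shared by pluripotent cells, 1 was higher and none lower, with a summed signal of 83219 and 94969. Of the 8 primed epiblast markers, Pou3f1 and Zic2 were higher past 1 and none was lower on its brightest probe, and the list median was 0.08. Dnmt3b differed by -0.84 where it was brightest and by -1.11 at the lowest of its 3 probes. The summed signal of that list was 263178 and 214695, in which the brightest gene, Dnmt3b, was at 17.07 and 16.24. Their part in the higher level of the feedback targets was not tested, and whether all cells of a group carried the difference cannot be read from pooled RNA.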

How the data were processed

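RNA of 2 samples, 1 EpiSC and 1 ELA-EpiSC, was read on one-colour Agilent SurePrint G3 mouse arrays, labelled with Cy3 from 50 ng of RNA per the labels. Each deposited scanner file gives the linear intensity of every spot and of its local background, made with Feature Extraction 10.7.3.1 per the file headers (9.1 in the submitters' processing notes). Log2 values per probe that the authors had background-corrected and quantile normalized with limma were likewise deposited and served as an alternative. Groups follow the sample titles.

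Mean spot signal was background-corrected (normexp fitted to all spots, offset 50) and quantile normalized without control and flagged spots (limma 3.58.1, R 4.3.3). This compresses differences of dim probes. Summaries used Python 3.11.15. A gene was read on its brightest detected probe, detected meaning well above background on at least 1 array. The bar of 1 and the level minimum of 7.5 follow the study's methods. With 1 array per group no test was made, and the number of arrays limits the precision. The steps were tested on simulated data, and 17 alternatives were run. Genes named outside the 10 members were those of the 6 lists past 1 and the 2 of highest mean log2 level in each list. The exceptions, Dusp7, Dusp8, Spred3, Etv1, Fos, Fosb and the cell type markers named, were chosen after their values were seen. Members and lists were chosen with earlier results of these data known. A comparison of the members' proteins, planned at the outset, was not made, and protein sequences were not used here.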

Additional observations from a re-analysis of the deposited data

How the results depend on the processing

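All 10 members were higher in ELA-EpiSC under all 17 alternatives, so no member changed direction. A changed bar or level minimum could not alter a direction. The number of members past 1, 3 as reported, was 6 after scaling by the median, 7 with spike-in probes set equal and 7 at a bar of 1.5-fold, and it stayed between 2 and 4 under the others. The member median of 0.85 became 1.08 with scaling by the median, 1.39 with spike-in probes set equal and 0.74 when a gene was read as the average over its probes, which takes in the dim Spred1 probe 3. With spike-in probes set equal, pathway genes past 1 numbered 36 on the ELA-EpiSC side and 2 on the EpiSC side (17 and 4 as reported), and all genes 2603 and 321 (756 and 742 as reported). A bar of 1.5-fold gave 30 and 10 pathway genes and 1845 and 1823 of all genes. A level minimum of 9 left 481 genes higher in EpiSC, since fewer genes were counted. The cause of the spike-in shift was not tested.

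No paired analysis was possible because only 1 array stood for each group. The limits are those of 1 pooled RNA per group. The spot SD leaves out culture, labelling and any offset between whole arrays. Of the 10 members, 8 had a single probe, and each probe was printed once. Background correction and normalization shrink differences at low signal. On their brightest probes the members' raw signals were 23.3 to 2313 times the local background.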
